A study of Mus musculus with 6 samples.

Results

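The amino acid response governed by the transcription factor ATF4 was described in RAW 264.7 cells with and without an APOBEC1 knockout, through 44 genes taken by name from the 24848 gene symbols of the deposited expression table. They comprise ATF4 and 3 partner transcription factors, 7 stress effectors and feedback genes, 8 amino acid synthesis enzymes, 4 enzymes that carry serine carbon into folate, 8 amino acid transporters and 13 cytosolic tRNA synthetases. RAW 264.7 is a macrophage-like line from a tumour that Abelson leukaemia virus raised in a BALB/c mouse. Messenger RNA was sequenced from 6 plates with no treatment named, 3 of WT cells and 3 of the APOBEC1 knockout (KO), all grown in high-glucose DMEM with 5% serum and added glutamine, and the study used the libraries to compare RNA editing calls from sequencing with calls from Sanger traces. APOBEC1 is a cytidine deaminase that edits messenger RNA. The labels state neither how the knockout was made nor how many clones it holds, so an effect of the genotype and of other changes in the KO line cannot be told apart, and the p-values measure only the spread between plates.

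Kinases that sense uncharged tRNA, misfolded protein, viral RNA or low heme phosphorylate the initiation factor eIF2α, which lowers protein synthesis in general but favours translation of ATF4 messenger RNA. ATF4 pairs with C/EBP and related factors on composite DNA elements and raises transcription of genes for amino acid import, amino acid synthesis and tRNA charging, together with feedback genes that limit the response. Macrophages use the same programme when amino acids or cystine run short and during activation. Messenger RNA levels, measured here, do not report ATF4 protein or its translation.

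The libraries held 50493447 to 70411383 reads, and the values are reads scaled to a common library total (CPM). Of 12 macrophage markers, 11 were in the table, with summed levels of 3669 to 3811 CPM in WT and 3970 to 4402 CPM in KO. Of these 3 were called higher and 3 lower in KO, against 13.5% and 16.9% of all tested genes, and they did not move together. The sum rose mainly through Lyz2, from a mean of 708 to 1238 CPM. Csf1r went from 865 to 747 CPM (not called) and Adgre1 from 45.4 to 31.9 CPM (called lower). Spi1 and Mertk, also called higher, lie on chromosome 2, which carried an offset described below. Mrc1, the mannose receptor, was at 1.29 to 1.77 CPM in WT and at 0.0142, 0.0167 and 0.0750 CPM in KO, at or near the level of single reads, and it passed the filter only through WT. Summed markers were at most 0.0300 CPM for fibroblasts, 0.368 CPM for T cells, 0.317 CPM for B cells and 0.114 CPM for epithelial cells, with Col1a1, Dcn, Cd3e and Krt18 at 0 in all libraries. Apobec1 itself was at 372.5, 431 and 396 CPM in the WT libraries and 339, 340.1 and 361 CPM in the KO libraries, so a gene-level count does not check the genotype. In bulk RNA, fewer cells that express a gene and less of its RNA per cell cannot be told apart. The ribosomal precursor Rn45s took 2.75%, 0.381% and 2.43% of reads in WT replicates 1, 2 and 3 and 0.542% to 1.40% in KO.

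Most of the response genes stood higher in the knockout, by modest amounts. The genes were chosen with earlier results of these data known. The counts set beside all tested genes therefore describe the set, and no excess is read from them. Of the 44 genes, 42 exceeded 1 CPM in every library and were tested, 25 of them were called higher in KO and 2 lower, and 15 were not called. The calls come from limma on log2(CPM + 0.5) with a Benjamini-Hochberg adjusted p under 0.05 over all 10614 tested genes, of which 13.5% were called higher, 16.9% lower and 30.4% in either direction. The median log2 fold change was 0.25 over the 42 genes and -0.02 over all tested genes. On this scale 37 of the 42 differences lay above 0, as did 46.3% of all tested genes. In 28 of the 42, every KO library lay above every WT library, and in 2 every KO library lay below, against 20.9% and 25.4% of all tested genes, or 46.4% without overlap in either direction. The differences were small: 2 genes, Sesn2 and Trib3, were called with a rise of at least 2-fold, and the other called rises ran from 1.15-fold for Yars to 1.99-fold for Chac1.

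**Figure D1:**
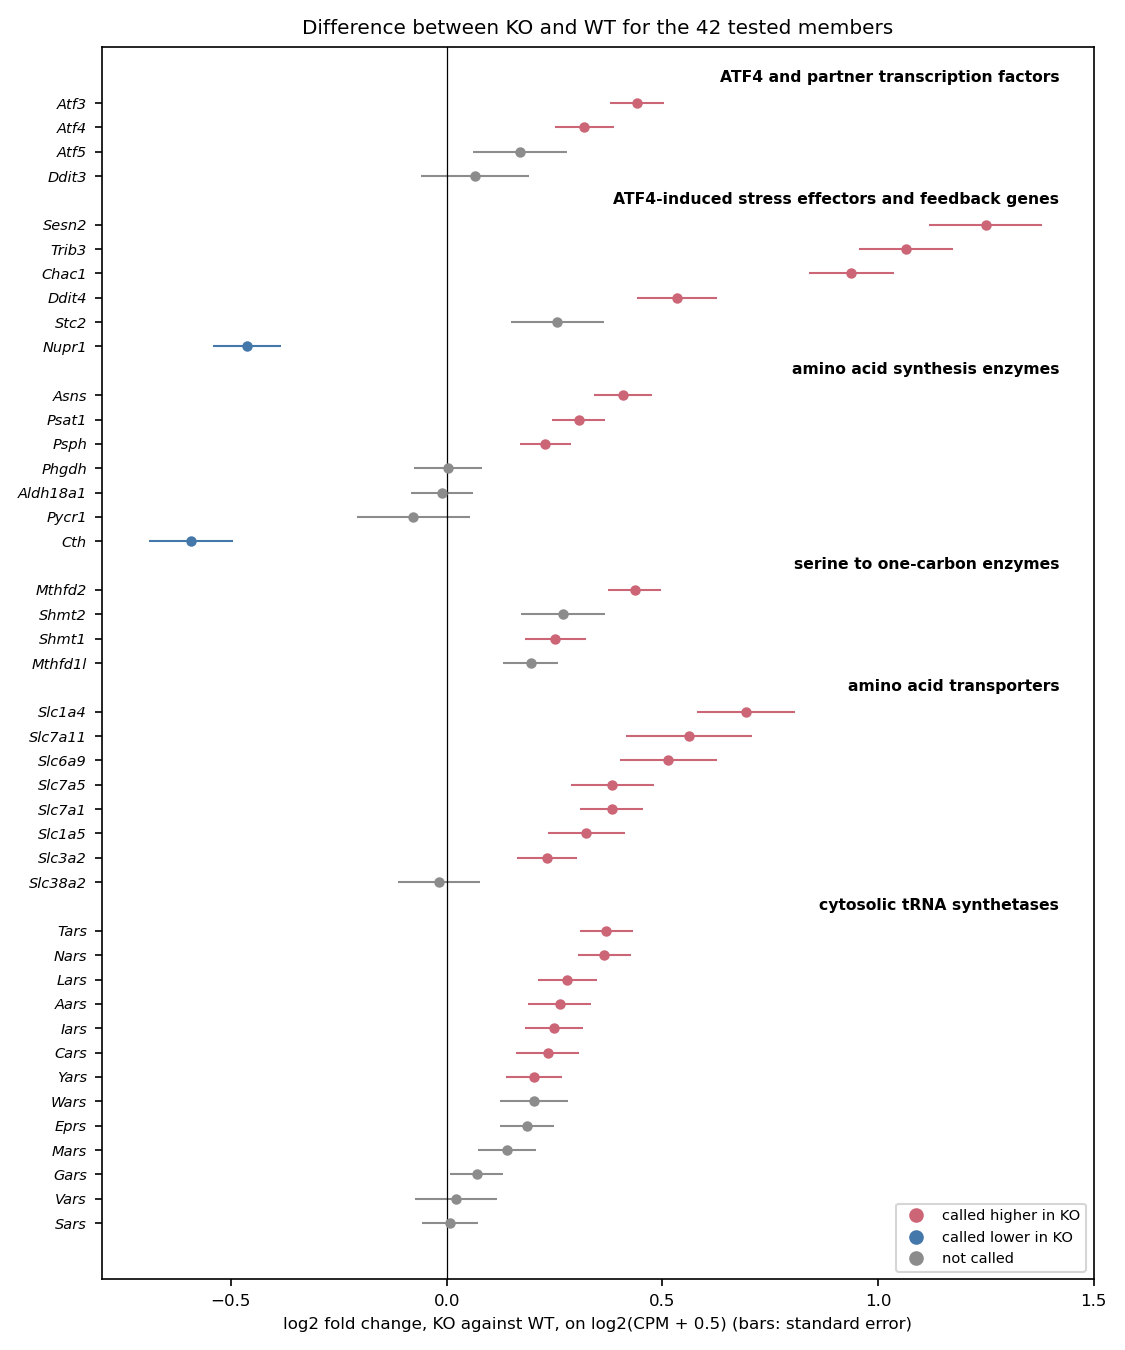
Log2 fold change of KO against WT on log2(CPM + 0.5) for the 42 tested genes, grouped by role; points are limma estimates, bars are standard errors, and colour marks genes called higher, called lower or not called. Sesn2 (1.25), Trib3 (1.07) and Chac1 (0.94) lie farthest to the right, and Cth (-0.59) and Nupr1 (-0.46) are the only genes called lower.

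Counting reads instead of log values gave a like picture. On the recovered whole reads, edgeR called 26 of the 42 higher and 2 lower, with 15.4% and 16.2% of all tested genes called higher and lower. DESeq2 called 29 higher and 2 lower, with 17.6% and 17.8% of all tested genes. All 25 genes called higher by limma were also called by both tools. Chromosome 2 carried an offset in these lines: its 867 tested genes had a median log2 fold change of 0.34, with 503 called higher and 45 lower, and Trib3 and Chac1 lie on it. Outside chromosome 2, 23 of 40 tested genes of the set were called higher and 2 lower, with a median of 0.25. The shares over all tested genes, 13.5% higher and 16.9% lower, include chromosome 2 and are not the background for this count. Chromosome 2, with 867 of the 10614 tested genes, held 503 of the 1436 called higher and 45 of the 1794 called lower. Outside chromosome 2 the share called higher was therefore below 13.5%, and the share called lower was above 16.9%. With each chromosome centred on its own median, 26 of the 42 were called higher and 2 lower, with 12.2% and 15.3% of all tested genes, and 24 of the original 25 stayed called, the exception being Yars.

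The 3 KO plates shared the pattern, while the WT plates were not alike. Relative to each gene's WT mean, the median deviation over the 42 genes in replicates 1, 2 and 3 was 0.09, -0.02 and -0.05 on the log2 scale for WT, and 0.20, 0.26 and 0.31 for KO. WT replicate 1 thus lay nearest to the KO plates. It held the highest WT value for 32 of the 42 genes, WT replicate 2 for 10 and WT replicate 3 for 0. Over all 10614 tested genes WT replicate 1 was highest in 4067, and the median deviation was -0.01, 0.05 and -0.03 in WT and -0.04, -0.04 and 0.01 in KO. The median coefficient of variation of the 42 genes was 5.94% in WT and 5.80% in KO, below the 8.54% and 6.05% of all tested genes. The number of the 42 genes called higher depended on the plates. It was 31, 19 and 13 without WT replicates 1, 2 and 3, and 18, 16 and 14 without KO replicates 1, 2 and 3. In the same order, 3527, 2767, 2231, 1918, 2136 and 2299 of all tested genes were called in either direction. With all 6 libraries it was 3230. Calls thus also fell over all genes in every fit except that without WT replicate 1. These all-gene counts cover both directions, so they do not show how many rises each fit kept.

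**Figure D2:**
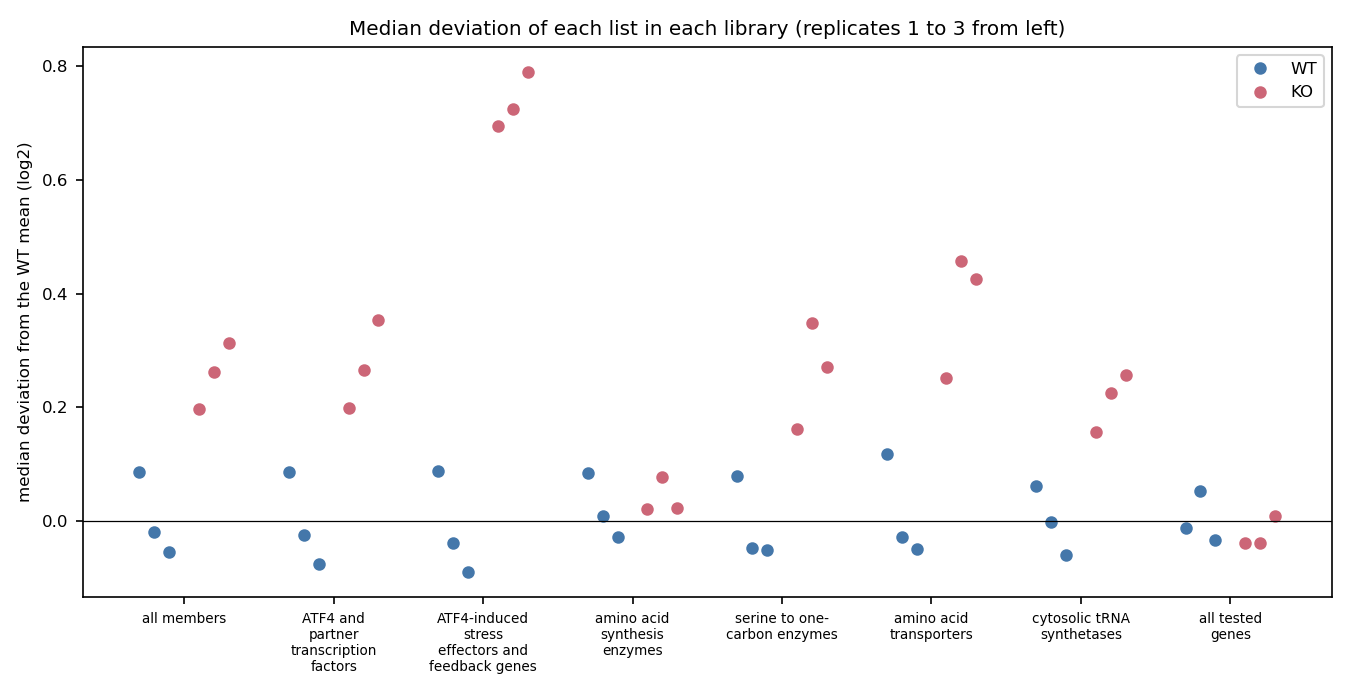
Median deviation of each library from the WT mean, in log2 units, over all 42 tested genes, over each class and over all tested genes; each point is a library, with replicates 1 to 3 from left to right. Over all 42 genes the KO libraries lie at 0.20 to 0.31 and the WT libraries at -0.05 to 0.09, whereas over all tested genes every library lies between -0.04 and 0.05.

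Promoter sequences were set beside these differences because ATF4 binds a defined composite element. The letters TGATGNAA, the core of the C/EBP-ATF response element, were searched on both strands (TTNCATCA on the other strand) in RefSeq promoter windows of GRCm38.p6 that run from 250 bases before to 50 bases after a start site. Windows were found for 36 of the 44 genes, and 14 of these (38.9%) held the core. The stricter form TGATGCAA (TTGCATCA on the other strand), which is contained in the core, was present in 11 (30.6%). Over the 27025 genes of the RefSeq table the shares were 4.51% and 1.03%, and over the 8487 genes with a window among those tested they were 2.71% and 0.742%. The genes were listed as reported ATF4 targets, some of them known through this element, so nothing is read from the higher share. A match is a description of letters and not a site of binding. The 9 stretches below lie wholly upstream of the start site and are shown, in the direction of transcription with the match in capitals, because the same letters accompany genes with different outcomes.
Atf3, chr1:191183410-191183469, minus strand, called higher: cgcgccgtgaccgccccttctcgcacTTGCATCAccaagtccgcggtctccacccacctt
Chac1, chr2:119351023-119351082, plus strand, called higher: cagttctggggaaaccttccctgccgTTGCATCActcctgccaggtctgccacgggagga
Asns, chr6:7693210-7693258, minus strand, called higher: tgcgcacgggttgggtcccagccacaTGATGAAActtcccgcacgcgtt
Slc7a11, chr3:50443646-50443705, minus strand, called higher: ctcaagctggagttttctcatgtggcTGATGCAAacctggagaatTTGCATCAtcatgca
Aars, chr8:111033704-111033763, plus strand, called higher: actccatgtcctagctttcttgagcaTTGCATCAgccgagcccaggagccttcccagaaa
Tars, chr15:11399659-11399699, minus strand, called higher: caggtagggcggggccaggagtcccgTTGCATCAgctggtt
Nupr1, chr7:126625547-126625606, minus strand, called lower: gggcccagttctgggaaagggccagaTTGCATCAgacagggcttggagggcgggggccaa
Pycr1, chr11:120643818-120643877, minus strand, not called: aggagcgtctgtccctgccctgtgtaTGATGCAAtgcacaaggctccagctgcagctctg
Gars, chr6:55037945-55038000, plus strand, not called: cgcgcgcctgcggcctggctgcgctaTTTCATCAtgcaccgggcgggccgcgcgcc

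Counted back from the start site, the match ended 16 bases upstream in Asns and 8 bases upstream in Tars, and began 193 bases upstream in Chac1. Slc7a11 carried the strict letters at -66 to -59 and again, on the other strand, at -47 to -40. Trib3, Slc1a4, Iars, Yars and Vldlr also had a match. Of the 14 genes with a match 10 were called higher, 1 (Nupr1) was called lower, 2 (Pycr1 and Gars) were not called and 1 (Vldlr) was below the filter, with a median log2 fold change of 0.37. Of the 22 genes with a window and no match 10 were called higher, 0 lower, 11 were not called and 1 was below the filter, with a median of 0.23. The limma shares over the 10614 tested genes were 13.5% higher and 16.9% lower. The genes were listed as reported targets with earlier results known. The contrast between genes with and without a match was not tested, and nothing is read from it. Sesn2, the gene with the largest rise, had no match in its window, which says only that these letters are not in that stretch.

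**Figure D3:**
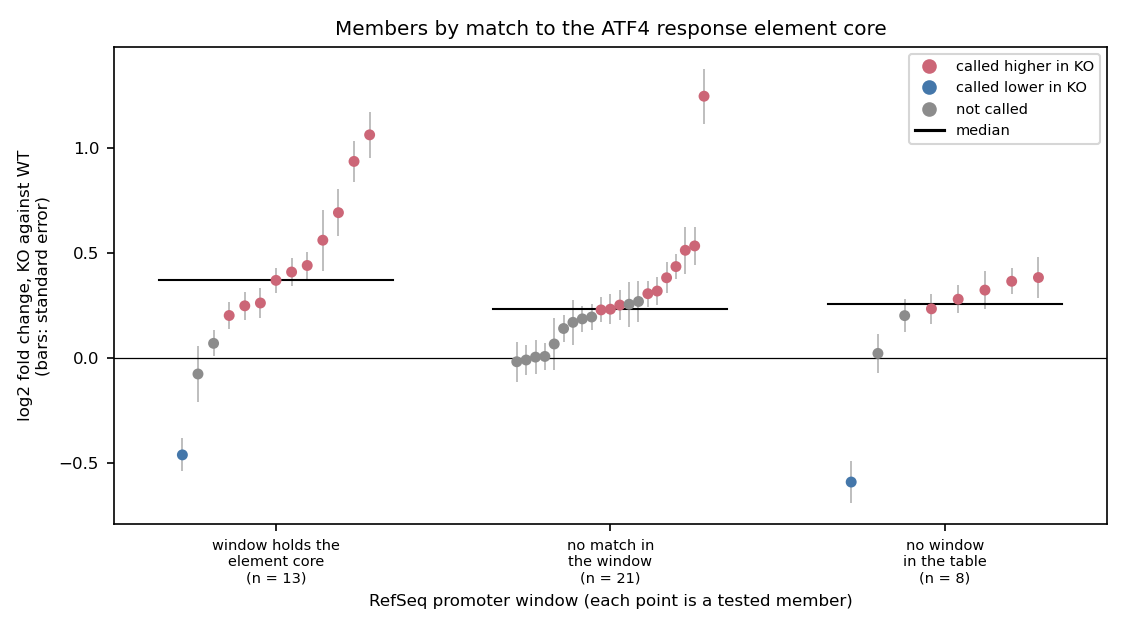
Log2 fold change of KO against WT for the tested genes, split by whether the RefSeq promoter window holds the core TGATGNAA, lacks it or was not in the table; points are genes, bars standard errors and horizontal lines medians. The medians are 0.37 with a match and 0.23 without one, and genes called higher appear in each column.

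Among the transcription factors, Atf4 and Atf3 rose and Atf5 and Ddit3 were not called, a count of 2 of 4 with a median log2 fold change of 0.24. Atf4 (chr15:80255184-80257541 in mm10) was at 356, 324 and 317 CPM in WT and at 403, 407 and 434 CPM in KO, in the order of replicates 1, 2 and 3 as everywhere here. The groups did not overlap, and WT replicate 1 was the nearest to KO. The mean rose from 332 ± 20.8 to 415 ± 16.9 CPM (SD, n = 3), a ratio of 1.25, with a log2 fold change of 0.32 ± 0.07 (standard error) and a limma adjusted p of 0.0103. Without WT replicate 3 it was 0.29 with an adjusted p of 0.0516. Atf3, a stress-induced factor of the same bZIP family, was at 63.8, 60.0 and 58.3 CPM in WT and 80.3, 84.2 and 83.1 CPM in KO. All KO values lay above all WT values by more than the spread within either group, with a log2 fold change of 0.44 ± 0.06 and a limma adjusted p of 0.00156.

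Atf5, a bZIP factor whose translation also responds to eIF2α phosphorylation, was at 52.7, 43.4 and 39.1 CPM in WT and 48.7, 52.9 and 49.7 CPM in KO. WT replicate 1 fell inside the KO range, and the difference of 0.17 ± 0.11 was not called (limma adjusted p 0.28). Without WT replicate 1 it was called, at 0.29 (adjusted p 0.0204), and without WT replicate 3 it was 0.07 (adjusted p 0.653). Ddit3, which encodes the stress factor CHOP, was at 20.04, 20.3 and 18.4 CPM in WT and 20.4, 17.2 and 24.6 CPM in KO. Its groups overlapped, KO being the more spread, and the difference of 0.07 ± 0.13 had a limma adjusted p of 0.73. Ddit3 shares 3.97% of its exon bases with Mars on the opposite strand, and Atf5 shares 4.11% with Nup62 and Il4i1, which are listed at 0 in all libraries. Strand use in the counting was not stated, so reads from such shared bases cannot be assigned. Per kilobase of transcript, Atf4 stood at 193 CPM in WT, far above Atf3 (30.6), Atf5 (24.8) and Ddit3 (22.0).

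The stress effectors and feedback genes held the largest differences. Of 6 tested, 4 rose, 1 fell and 1 was not called, against 13.5% called higher and 16.9% lower over all tested genes. The median log2 fold change was 0.74. The 5 called genes stayed called without any of the 6 libraries in turn. Sesn2, a leucine-binding inhibitor of the growth kinase complex mTORC1, lies at chr4:132492032-132510501. Its levels were 17.6, 12.9 and 13.6 CPM in WT and 31.5, 36.0 and 39.0 CPM in KO. The lowest KO library was well above the highest WT library, and the mean went from 14.7 ± 2.54 to 35.5 ± 3.80 CPM (SD, n = 3). The ratio was 2.41, with a log2 fold change of 1.25 ± 0.13 and a limma adjusted p of 0.000345.

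Trib3, a pseudokinase that binds ATF4 and dampens its activity, was at 15.3, 11.9 and 12.0 CPM in WT and 26.1, 28.5 and 28.8 CPM in KO. The groups were far apart, with WT replicate 1 again the highest WT value. The ratio was 2.12 and the log2 fold change 1.07 ± 0.11 (limma adjusted p 0.000308). Chac1, an enzyme that degrades glutathione, was at 7.05, 6.26 and 6.52 CPM in WT and 11.7, 14.1 and 13.7 CPM in KO. It did not overlap between groups and had a ratio of 1.99 and a log2 fold change of 0.94 ± 0.10 (limma adjusted p 0.000338). Both genes lie on chromosome 2. Centred on that chromosome's median, Trib3 was at 0.74 (limma adjusted p 0.00137) and Chac1 at 0.61 (limma adjusted p 0.00207), so each exceeded the offset.

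Ddit4, which encodes the mTORC1 inhibitor REDD1, was a low gene at 6.28, 6.05 and 5.67 CPM in WT and 9.40, 8.13 and 9.24 CPM in KO. The KO values were all higher, with a ratio of 1.49 and a log2 fold change of 0.53 ± 0.09 (limma adjusted p 0.00379). Nupr1, a small stress-induced nuclear protein, went the other way. It was at 38.1, 35.6 and 33.7 CPM in WT and 25.9, 24.2 and 27.3 CPM in KO, with no overlap. The level was 1.39-fold lower in KO, with a log2 fold change of -0.46 ± 0.08 (limma adjusted p 0.00357). Stc2, a secreted stanniocalcin, overlapped between groups, with a WT level of 34.1 ± 4.25 CPM and a KO level of 40.7 ± 3.56 CPM (n = 3). It was not called by limma (0.26 ± 0.11, adjusted p 0.112), although it was without WT replicate 2 (0.34, adjusted p 0.0377). With all libraries edgeR (0.28, adjusted p 0.0473) and DESeq2 (0.29, adjusted p 0.0234) called it higher. Vldlr, a lipoprotein receptor, is listed at 0 in all 6 libraries, where 3 reads, the limit that a count of 0 allows, would be 0.0426 to 0.0594 CPM.

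**Figure D4:**
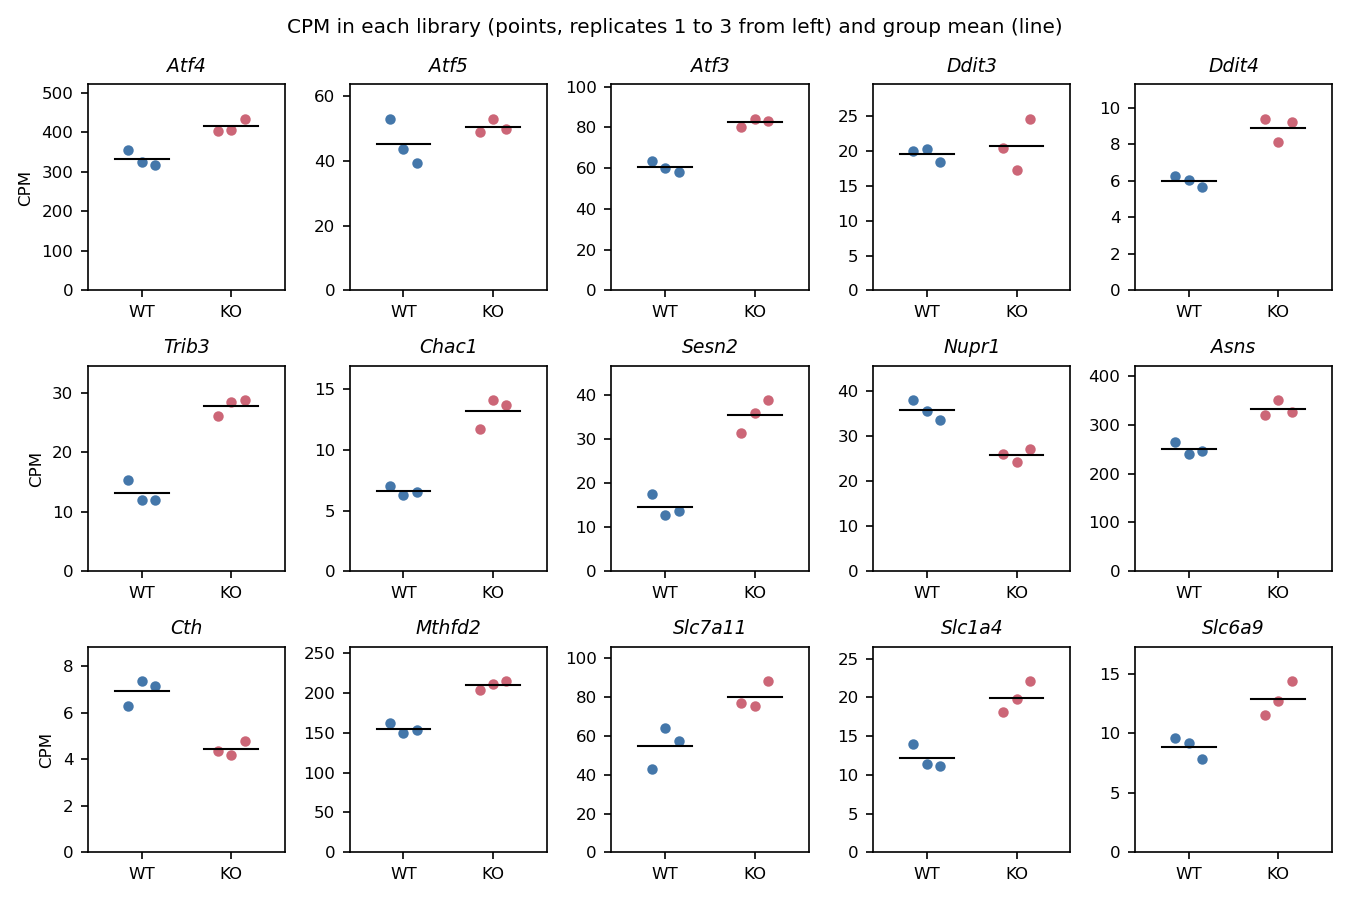
CPM in each library for the 4 transcription factors and the genes called with a log2 fold change of 0.4 or more in size; points are libraries, with replicates 1 to 3 from left to right, lines are group means, and each vertical axis starts at 0. Atf5 and Ddit3 overlap between groups, Nupr1 and Cth lie lower in KO, and the other 11 genes lie higher in every KO library.

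Amino acid synthesis enzymes did not move together. Of 7 tested, 3 rose, 1 fell and 3 were not called, against 13.5% called higher and 16.9% lower over all tested genes. The median log2 fold change was 0.00. Asns, which makes asparagine from aspartate and glutamine and is a classic ATF4 target, was at 265, 240.3 and 245 CPM in WT and 319.8, 351 and 327 CPM in KO. All KO libraries were above all WT libraries. Its ratio was 1.33 and its log2 fold change 0.41 ± 0.07 (limma adjusted p 0.003). Chromosome 6, where it lies, had a median log2 fold change of -0.16 over 521 tested genes, and centred on it Asns stood at 0.57.

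Serine is made from a glycolytic intermediate in 3 steps, by Phgdh, Psat1 and Psph in that order, and these differed from one another. Phgdh, the entry enzyme, averaged 473 ± 38.1 CPM over the WT plates and 473 ± 27.2 CPM over the KO plates (SD, n = 3), with a log2 fold change of 0.00 ± 0.08 (limma adjusted p 0.978). Psat1 went from 546 ± 5.15 to 676 ± 32.0 CPM (n = 3, limma log2 fold change 0.31 ± 0.06, adjusted p 0.00754). Psph went from 61.2 ± 1.98 to 71.7 ± 1.23 CPM (n = 3, limma log2 fold change 0.23 ± 0.06, adjusted p 0.0225). Psph stayed called only without WT replicate 1. Its log2 fold change ran from 0.20 to 0.24 with adjusted p from 0.0534 to 0.0885 without each of the other 5 libraries, and 10.4% of its exon bases are shared with Cct6a on the opposite strand, which reached 602 CPM. Per kilobase in WT, Phgdh (249.8 CPM) and Psat1 (209 CPM) stood above Psph (35.3 CPM).

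Aldh18a1 and Pycr1, the first and last enzymes of proline synthesis from glutamate, were not called. Aldh18a1 averaged 148 ± 7.91 CPM over the WT plates and 147 ± 9.37 CPM over the KO plates (n = 3, limma adjusted p 0.932), and Pycr1 at 4.76 ± 0.898 and 4.44 ± 0.177 CPM (n = 3, limma adjusted p 0.699). Pycr1 held the lowest value of any tested gene of the set, 3.87 CPM in WT replicate 3. Cth, the enzyme that releases cysteine at the end of transsulfuration, fell. It was at 6.30, 7.36 and 7.16 CPM in WT and 4.35, 4.17 and 4.77 CPM in KO. The groups did not overlap, and the level was 1.57-fold lower in KO, with a log2 fold change of -0.59 ± 0.10 (limma adjusted p 0.0031). Cbs, the enzyme before it, was read at most 2 times in any library and was not tested.

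Enzymes that carry the serine carbon into folate lay above 0 throughout, with a median log2 fold change of 0.26. By limma 2 of 4 were called higher, against 13.5% of all tested genes. Mthfd2, a mitochondrial methylene-tetrahydrofolate dehydrogenase, was at 162, 149 and 153 CPM in WT and 203, 211 and 215 CPM in KO. The groups were well separated, with a ratio of 1.35 and a log2 fold change of 0.44 ± 0.06 (limma adjusted p 0.00139), or 0.60 when centred on chromosome 6. Shmt1, the cytosolic serine hydroxymethyltransferase, went from 49.98 ± 1.91 to 59.7 ± 3.69 CPM (n = 3, limma log2 fold change 0.25 ± 0.07, adjusted p 0.0304). Its adjusted p was 0.0668 to 0.119 without WT replicate 2, WT replicate 3, KO replicate 2 or KO replicate 3. It shares 4.74% of its exon bases with Smcr8 on the opposite strand. Shmt2, the mitochondrial form, overlapped between groups at 428 ± 51.3 and 514 ± 35.1 CPM (n = 3, limma log2 fold change 0.27 ± 0.10, adjusted p 0.0706), WT replicate 1 being at 486 CPM. Mthfd1l, which makes formate in mitochondria, was at 162 ± 9.05 and 185 ± 4.92 CPM (n = 3) and just missed the threshold (limma log2 fold change 0.20 ± 0.06, adjusted p 0.0517). Without WT replicate 1, limma called Shmt2 (0.36, adjusted p 0.00741) and Mthfd1l (0.24, adjusted p 0.0113). With all libraries DESeq2 called all 4 of these enzymes higher, against 17.6% of all tested genes.

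Among the amino acid transporters 7 of 8 were called higher and 0 lower, against 13.5% and 16.9% of all tested genes. Their median log2 fold change was 0.38. Slc1a4, a sodium-coupled carrier of neutral amino acids, was at 13.9, 11.4 and 11.2 CPM in WT and 18.1, 19.8 and 22.1 CPM in KO. The separation was clear in every library, with a ratio of 1.64 and a log2 fold change of 0.69 ± 0.11 (limma adjusted p 0.00298). Slc7a11, the cystine-importing subunit of system xc-, was at 42.7, 64.2 and 57.6 CPM in WT and 77.1, 75.2 and 88.4 CPM in KO. Here WT replicate 1 was the lowest WT library and the WT plates were widely spread. The ratio was 1.46 and the log2 fold change 0.56 ± 0.15 (limma adjusted p 0.0219). Without KO replicate 1, KO replicate 3 or WT replicate 3 the adjusted p was 0.0663, 0.0774 and 0.05.

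Slc6a9, a glycine transporter, was at 9.63, 9.19 and 7.84 CPM in WT and 11.6, 12.7 and 14.4 CPM in KO. It did not overlap, with a ratio of 1.45 and a log2 fold change of 0.51 ± 0.11 (limma adjusted p 0.0111), and its antisense neighbour Ccdc24, which covers 27.8% of its exon bases, was at most at 0.0167 CPM. Slc7a5, the light chain of the leucine carrier LAT1, went from 251 ± 26.5 to 327 ± 28.9 CPM (n = 3, limma log2 fold change 0.38 ± 0.10, adjusted p 0.0196). Slc3a2, the heavy chain that both Slc7a5 and Slc7a11 need at the membrane, went from 251 ± 18.6 to 294 ± 8.98 CPM (n = 3, limma log2 fold change 0.23 ± 0.07, adjusted p 0.0396). The cationic amino acid carrier Slc7a1 went from 252 ± 3.84 to 329 ± 27.0 CPM (n = 3, limma log2 fold change 0.38 ± 0.07, adjusted p 0.00603). Slc1a5, the main glutamine carrier of many dividing cells, went from 316 ± 29.4 to 396 ± 31.8 CPM (n = 3, limma log2 fold change 0.32 ± 0.09, adjusted p 0.0281). The exception was Slc38a2, another sodium-coupled neutral carrier, which overlapped at 567 ± 65.0 and 558 ± 34.7 CPM (n = 3, limma log2 fold change -0.02 ± 0.10, adjusted p 0.906).

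Of the 7 transporters called, 7 stayed called without WT replicate 1, 5 without WT replicate 2, 3 without WT replicate 3, 5 without KO replicate 1, 4 without KO replicate 2 and 3 without KO replicate 3. Slc1a4, Slc6a9 and Slc7a1 were called each time. Without the plates that ended their calls, log2 fold changes were 0.32 to 0.39 for Slc7a5, 0.20 to 0.26 for Slc3a2 and 0.27 to 0.33 for Slc1a5, so the sizes moved little. Summed over the 8 genes, transporter messenger RNA was 1711.9 ± 24.9 CPM in WT and 2016 ± 110.3 CPM in KO (SD, n = 3), a ratio of 1.18.

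All 13 listed cytosolic tRNA synthetases, the enzymes that attach amino acids to their tRNAs, had log2 fold changes above 0, and 7 were called higher, 0 lower and 6 not called, with a median of 0.20. By limma 0 of the 13 were also lower at an unadjusted p under 0.05, and edgeR and DESeq2 called 7 and 8 higher and 0 lower. The share of all tested genes at that unadjusted p is not given, so nothing is read from the count of 0. In 9 of the 13 every KO library lay above every WT library, against 20.9% of all tested genes. Of all tested genes 13.5% were called higher, 16.9% lower, and 46.3% lay above 0. The largest rises were those of Tars (threonine), from 209 ± 3.63 to 270.0 ± 13.4 CPM (n = 3, limma log2 fold change 0.37 ± 0.06, adjusted p 0.00301), and Nars (asparagine), from 379 ± 8.39 to 488 ± 23.8 CPM (n = 3, limma log2 fold change 0.37 ± 0.06, adjusted p 0.00356). Both were called without any of the 6 libraries in turn. Nars charges tRNA with the amino acid that Asns makes.

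Smaller called rises were found for Lars (leucine), Aars (alanine), Iars (isoleucine), Cars (cysteine) and Yars (tyrosine). Lars went from 286 ± 12.5 to 347 ± 20.6 CPM (n = 3, limma log2 fold change 0.28 ± 0.07, adjusted p 0.0172). Aars went from 273 ± 22.6 to 326 ± 10.2 CPM (n = 3, limma 0.26 ± 0.07, adjusted p 0.0302), and 14.3% of its exon bases are shared with Exosc6 on the same strand. Iars went from 284 ± 7.71 to 338 ± 22.5 CPM (n = 3, limma 0.25 ± 0.07, adjusted p 0.0266). Cars went from 102 ± 5.07 to 120.0 ± 8.26 CPM (n = 3, limma 0.23 ± 0.07, adjusted p 0.0437). Yars, from 115 ± 4.82 to 133 ± 6.53 CPM (n = 3, limma 0.20 ± 0.07, adjusted p 0.0499), lay just inside the threshold and was called under 6 of 21 other settings. Of the 7 called synthetases, 7 stayed called without WT replicate 1, 4 without WT replicate 2, 2 without WT replicate 3, 3 without KO replicate 1, 3 without KO replicate 2 and 2 without KO replicate 3. Over the calls lost in this way Lars was at 0.23 to 0.30, Aars at 0.23 to 0.29, Iars at 0.20 to 0.26, Cars at 0.18 to 0.26 and Yars at 0.17 to 0.24.

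Not called were Wars (tryptophan, 0.20 ± 0.08, limma adjusted p 0.0899), Eprs (the fused enzyme for glutamate and proline, 0.19 ± 0.06, adjusted p 0.0581), Mars (methionine, 0.14 ± 0.07, adjusted p 0.15), Gars (glycine, 0.07 ± 0.06, adjusted p 0.442), Vars (valine, 0.02 ± 0.09, adjusted p 0.89) and Sars (serine, 0.01 ± 0.06, adjusted p 0.95). Gars lies on chromosome 6, and centred on that chromosome's median it stood at 0.23 (limma adjusted p 0.0551). Without WT replicate 1, limma called Wars (0.27, adjusted p 0.0101), Eprs (0.20, adjusted p 0.0417) and Mars (0.19, adjusted p 0.0387). Wars and Eprs did not overlap between groups, whereas Mars, Gars, Vars and Sars did. Per kilobase of transcript, the most abundant in WT were Gars (216 CPM), Eprs (156 CPM) and Nars (138 CPM), and the least were Yars (39.7 CPM) and Cars (31.6 CPM). In KO, Nars stood level with Eprs, both at 178 CPM per kilobase, while Gars (226 CPM) stayed the highest. The 13 genes together went from 3932 ± 144 to 4479 ± 130.4 CPM (SD, n = 3), a ratio of 1.14.

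Differences between the families of synthetase genes were not tested, and each is described by its own counts. For comparison, 13.5% of all tested genes were called higher, 16.9% lower, and 46.3% lay above 0. Of 10 other cytosolic synthetase and scaffold genes, 3 were called higher and 0 lower, with 8 above 0 and a median log2 fold change of 0.11. Farsb, a subunit of the phenylalanine enzyme, went from 173 ± 5.80 to 264 ± 5.83 CPM (n = 3, limma log2 fold change 0.61 ± 0.06, adjusted p 0.000201), more than any listed synthetase. Its partner subunit Farsa was not called, at 69.1 and 71.3 CPM (limma log2 fold change 0.05, adjusted p 0.644). Rars (arginine) and Hars (histidine) rose by 0.30 ± 0.06 and 0.23 ± 0.06 (limma adjusted p 0.00529 and 0.0239), but Hars stayed called only without WT replicate 1, with adjusted p up to 0.0966 without each of the other libraries. Over all 20 cytosolic synthetase genes 10 were called higher and 0 lower, with a median of 0.20. Of the 17 mitochondrial synthetases, which charge tRNAs inside the organelle and are encoded by separate genes, 0 were called higher and 1 lower by limma, 2 lay above 0, and the median was -0.09. By limma 4 were lower at an unadjusted p under 0.05, and edgeR and DESeq2 each called 1 higher and 1 lower. The share of all tested genes at that unadjusted p is not given, so nothing is read from the count of 4. Hars2 was the gene called lower by limma, from 32.5 ± 4.70 to 24.7 ± 0.589 CPM (n = 3, log2 fold change -0.38 ± 0.10, adjusted p 0.0266), a call that held without WT replicate 1 or WT replicate 2, while the adjusted p rose to at most 0.0937 without each of the others.

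**Figure D5:**
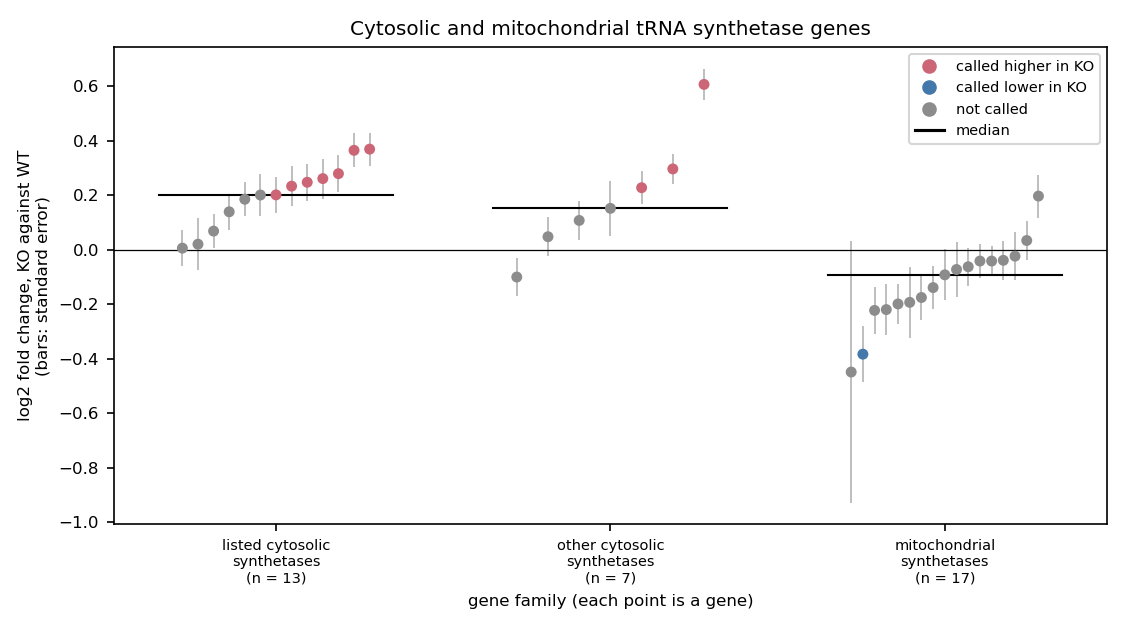
Log2 fold change of KO against WT on log2(CPM + 0.5) for the 13 listed cytosolic, 7 other cytosolic and 17 mitochondrial tRNA synthetase genes; points are genes, bars standard errors and horizontal lines medians. The 13 listed genes all lie above 0 with a median of 0.20, whereas 15 of the 17 mitochondrial genes lie below 0 with a median of -0.09.

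The counts for genes upstream of ATF4, and for its reported targets outside the listed set, are near the background of 13.5% called higher and 16.9% called lower over all tested genes, and nothing particular to them is read from the counts. Of 13 genes for the eIF2 kinases, the eIF2 phosphatase subunits and eIF2 or eIF2B, 1 was called higher and 0 lower, with a median log2 fold change of 0.06. The called gene was Eif2b3, a subunit of the exchange factor that recharges eIF2, from 46.9 ± 0.687 to 53.7 ± 0.897 CPM (n = 3, limma log2 fold change 0.19 ± 0.06, adjusted p 0.0399), and edgeR and DESeq2 each called 2 higher. The Eif2b3 call held only without WT replicate 1, with adjusted p up to 0.14 without each of the others. Among 19 other reported ATF4 targets and partners, 14 were tested, 2 rose, 1 fell and 11 were not called, with a median of 0.10. Jdp2, a bZIP repressor, rose from 13.8 ± 1.40 to 23.0 ± 0.501 CPM (n = 3, limma log2 fold change 0.72 ± 0.09, adjusted p 0.000771) and was called without any of the 6 libraries in turn. Slc38a1, a glutamine carrier, rose by 0.21 ± 0.06 (limma adjusted p 0.0351). Klhl24, an adaptor for protein degradation, fell by 0.38 ± 0.12 on the log2 scale (limma adjusted p 0.0449). The calls of Slc38a1 and Klhl24 held only without WT replicate 1, with adjusted p up to 0.115 and 0.135 without each of the others.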

How the data were processed

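Messenger RNA from 6 plates (WT 3, KO 3; 10000000 cells and 1 µg RNA each) was sequenced as paired 125-nucleotide reads, per the labels' protocols. The submitters' processing notes name mm10, the aligner STAR 2.6.0a, and Trim Galore, FastQC, SAMtools and Picard. Alignments were sorted and duplicates removed, per the file headers, which lowers high counts most. For the counter, annotation and strand use, nothing is given in the sources used here. CPM is what the authors deposited, scaled to the library total, and 7683 of 24848 symbols are listed at 0 in all libraries.

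All values (100%) were whole multiples of 1 read within 0.01 of a read, so reads were recovered, 50493447 to 70411383 per library. The limit that a count of 0 allows, 3 reads, is 0.0426 to 0.0594 CPM and covers counting error only, since reads carry no molecular identifiers. Genes that reached 1 CPM in 3 or more of 6 libraries were fitted on log2(CPM + 0.5), which understates changes of low genes, with limma 3.58.1 in R 4.3.3 (eBayes with trend, no covariates, Benjamini-Hochberg over 10614 genes, threshold 0.05). An exact permutation test of 3 against 3 cannot go below a two-sided p of 0.1. In a simulation over 10553 genes, 69, 72 and 59 genes were changed 1.5-fold, 2-fold and 4-fold. Of these 73.9%, 97.2% and 100% were recovered, with 15 false calls. Far fewer genes were changed there than the 3230 called in the data. Most called rises of the set were below 1.5-fold, and recovery of such changes was not tested. edgeR 4.0.16 (quasi-likelihood) and DESeq2 1.42.0 on recovered reads were alternatives, with other scalings, filters, pseudocounts, single libraries left out and chromosomes centred.

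Replicate numbers are shared between groups but same-numbered libraries did not deviate together (r = -0.247, -0.641 and -0.173 across genes). Deviations from a group mean cancel out within the group, which ties these r values to one another. Whether the numbers pair the plates is therefore not settled by them. Across different numbers, r was 0.579 for WT 1 with KO 2, 0.614 for WT 2 with KO 3 and 0.29 for WT 3 with KO 1. It was 0.0994 for WT 2 with KO 1, -0.0383 for WT 3 with KO 2 and -0.438 for WT 1 with KO 3. Pairing under other numbers was not tested. Within-group correlations were 0.988 to 0.998, and replicates differed by more than sampling noise. Gene positions, exon overlaps and lengths (the principal transcript) came from GENCODE M21, in which 24313 symbols matched. Promoter windows came from RefSeq (GRCm38.p6), and 8 of the 44 genes had none there. The genes and lists were chosen with earlier results of these data known. Every listed gene is named. Values per library are given for the 4 transcription factors and for called genes with a log2 fold change of 0.4 or more in size. From each further list up to 4 called genes are named by adjusted p, and some genes of these lists are not reported here. Farsa, Lars2, Nup62 and Il4i1 were named after their values were seen.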

Additional observations from a re-analysis of the deposited data

How the results depend on the processing

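Of 879 single-gene results over 21 settings, 748 kept their direction and side of the threshold, 78 lost a call, 21 gained one and 32 changed sign, 0 of the last among called genes. Asns, Atf3, Chac1, Ddit4, Mthfd2, Nars, Sesn2, Slc1a4, Slc6a9, Slc7a1, Tars and Trib3 stayed higher, and Cth and Nupr1 lower, in every setting that held them. With numbers shared between groups taken as a replicate block, 2009 genes were called in either direction (3230 without it) and 13 genes of the set were higher instead of 25. With a length and GC trend removed, an alternative chosen after seeing the data, 5047 genes were called in either direction and 31 of the set were higher. Leaving out single libraries gave 1918 to 3527 genes called in either direction, 13 to 31 of the set higher and 2 to 2 lower. Over all genes the counts were 1918 without KO replicate 1 and 2136 without KO replicate 2, and for the set 13 without WT replicate 3, 14 without KO replicate 3 and 16 without KO replicate 2; the cause was not tested. Quantile normalization left 18 of the set higher, and the settings not named here left 22 to 29.

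Sign changes concerned uncalled genes near 0. Leaving out single libraries moved the log2 fold change from -0.0616 to 0.189 for Ddit3, -0.0486 to 0.0653 for Phgdh, -0.046 to 0.0424 for Aldh18a1, -0.203 to 0.0451 for Pycr1, -0.109 to 0.057 for Slc38a2, -0.0239 to 0.0528 for Sars and -0.0289 to 0.115 for Vars. Quantile normalization gave -0.0636 for Phgdh, 0.163 for Pycr1, -0.0668 for Sars and -0.0541 for Vars, and leaving out Rn45s gave -0.0111 for Phgdh and -0.00784 for Sars. Aldh18a1 was 0.0167 with DESeq2, 0.0163 with TMM scaling, 0.0152 with edgeR, 0.0227 with chromosomes centred and 0.0569 with the GC trend removed. Slc38a2 was 0.00521 with DESeq2, 0.00795 with TMM scaling, 0.00493 with edgeR and 0.0068 with the GC trend removed. Depth limits Vldlr and Cbs alone, since every tested gene of the set exceeded 3 CPM in every library.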

Other observations

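Among 15 further folate, glycine and proline enzymes, 14 were in the table and 11 were tested. Of these 5 were called higher, 1 lower and 5 were not called, with a median log2 fold change of 0.11. The shares over all tested genes were 13.5% higher and 16.9% lower. Tyms, the thymidylate synthase, rose by 0.30 ± 0.07 (limma adjusted p 0.014), and the trifunctional cytosolic enzyme Mthfd1 by 0.29 ± 0.07 (limma adjusted p 0.0125). Without single libraries the adjusted p of Tyms reached 0.0697 and that of Mthfd1 0.059. Prodh, which breaks proline down, was at 1.92, 2.39 and 1.69 CPM in WT and 0.170, 0.1004 and 0.240 CPM in KO. It is the gene counted as lower, but it passed the filter only through the WT libraries where it is high, so its values are a description with no test.

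Lars2, the mitochondrial leucine synthetase, varied widely within the WT group. It was at 1402, 373 and 1404 CPM in WT replicates 1, 2 and 3 and at 875, 556 and 594 CPM in KO. The ribosomal precursor Rn45s was at 27477, 3811 and 24349 CPM in WT and 13984, 5419 and 6349 CPM in KO, high and low in the same libraries. The part of ribosomal RNA in the Lars2 count was not tested.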
